A study of Mus musculus with 9 samples.

Results

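The peroxisome proliferator-activated receptor (PPAR) genes *Pparg*, *Ppara* and *Ppard* and 7 genes of fatty acid handling known as PPAR targets (*Acot1*, *Acot2*, *Cd36*, *Plin2*, *Pdk4*, *Angptl4* and *Fabp4*) were examined by RNA-Seq in NMuMG cells, an immortalized mouse mammary gland line. These 10 genes were picked by symbol out of 52459 gene symbols, and they were selected on what *Acot1* and *Pparg* did in EPR against mock cells. Their values in that comparison are therefore given as a description, with no p-value, and counts of members past the cut-offs there describe the choice. Of the 10, 7 passed the expression filter (at least 1 CPM, counts per 1000000 counts, in at least 3 libraries), among 15370 genes that did. *Ppara*, *Cd36* and *Fabp4* did not pass it and are described by their counts.

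Total RNA of 3 groups of cells was sequenced, with 3 libraries each. Mock cells carried the empty vector, EPR cells overexpressed the full-length long non-coding RNA EPR (BC030870), and EPRSTOPE cells overexpressed a point mutant of it in which a stop codon replaces the second codon of its short open reading frame, so that the encoded peptide is not made. All cells, mock included, were stable transfectant pools of pBICEP-based vectors held under G418 selection, and expression from the constructs was driven by the CMV promoter of the vector. The question was which levels differ with EPR and which of these differences depend on the peptide. The methods call the 3 libraries of a group biological triplicates, and neither they nor the labels say whether these came from separate transfectant pools. The p-values judge differences against the spread between these libraries, and may not cover variation between transfectant pools.

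The libraries held 5972457 to 11876435 estimated counts, and 3 counts in a library correspond to 0.244 to 0.508 CPM. EPR RNA itself averaged 0.0543 ± 0.0940 CPM in mock, 24.9 ± 1.87 CPM in EPR and 4.24 ± 0.477 CPM in EPRSTOPE libraries (mean ± SD, n = 3, as in all group values that follow), so the mutant RNA was present at a lower level than the full-length RNA. A difference between EPR and EPRSTOPE cells therefore cannot be told apart from a difference in the amount of EPR RNA. The epithelial label was only partly borne out in mock cells. Of 10 epithelial markers, 4 had a mean of at least 1 CPM in mock libraries, with *Cdh1* at 0.843 CPM and *Epcam*, *Cldn4*, *Cldn7* and *Esrp1* at 0, and the list summed to 3693 to 4159 CPM, most of it keratins. The same list summed to 9491 to 10600 CPM in EPR libraries, where 6 markers reached 1 CPM, and to 10680 to 11020 CPM in EPRSTOPE libraries, where 5 did and *Cldn4*, *Cldn7* and *Esrp1* were at 0. *Cdh1* averaged 556 CPM in EPR and 403 CPM in EPRSTOPE libraries. Mesenchymal markers (5 of 8 at 1 CPM or more in every group, *Twist1* at 0) summed to 4035 to 4201, 2213 to 2444 and 3958 to 4296 CPM in mock, EPR and EPRSTOPE libraries. The similar sums of mock and EPRSTOPE hide opposite moves. In the same order of groups *Vim* averaged 2634, 1768 and 3138 CPM, *Cdh2* 330.5, 132.4 and 158.3 CPM and *Fn1* 1039, 379 and 782 CPM. *Zeb1* averaged 54.1, 49.5 and 50.1 CPM and *Zeb2* 57.8, 33.6 and 44.1 CPM. The part of these shifts in the differences described here was not tested.

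PPARs are nuclear receptors that are activated by fatty acids and their derivatives. They bind DNA as heterodimers with a retinoid X receptor (RXR) at direct repeats of the hexamer AGGTCA separated by a single base, and they switch on genes for the uptake, storage and oxidation of fatty acids. PPARγ, encoded by *Pparg*, is the main receptor of adipocytes and is also present in mammary epithelium. PPARα predominates in liver, heart and other tissues that burn fat, and PPARδ is found in most tissues.

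Of the 3 receptor genes, *Pparg* was lower in cells with either form of EPR, *Ppard* was highest with full-length EPR, and *Ppara* was near the detection limit. *Pparg* (ENSMUSG00000000440.12, on chromosome 6, + strand) stood at 20.5, 14.9 and 17.5 CPM in the mock libraries, at 1.40, 1.77 and 1.96 CPM in the EPR libraries and at 3.56, 4.17 and 3.45 CPM in the EPRSTOPE libraries. The 3 groups did not overlap, and every EPRSTOPE library lay between the mock and the EPR libraries. The level in EPR libraries was 10.3-fold below that in mock libraries (log2 difference -3.36, SE 0.21), the contrast by which the gene was chosen. In EPRSTOPE against mock, *Pparg* fell 4.68-fold (log2 fold change -2.23, SE 0.19, adjusted p = 1.5e-06, quasi-likelihood test of edgeR, Benjamini-Hochberg over all 15370 genes), with the same mock libraries as in the comparison used for choosing. In EPR against EPRSTOPE, it was 2.19-fold lower (log2 fold change -1.13, SE 0.23, edgeR adjusted p = 0.0031). This last call was lost in 6 alternatives (log2 -1.18 to -0.86). Among them were leaving out EPR library 206 or EPRSTOPE library 210 (adjusted p = 0.016 in both cases), limma (0.018), a fit of these groups alone (0.021) and counts scaled from TPM (log2 -0.86, adjusted p = 0.22). Throughout, a change was called where the adjusted p was below 0.01 and the log2 fold change exceeded 0.5 in size. In bulk RNA, fewer cells with the transcript and less transcript per cell cannot be told apart.

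*Pparg* is transcribed from several promoters, and 3 of its transcripts passed the filter. Pparg-201 carried most of the estimated counts, 65.2% of those in mock, 80.4% of those in EPR and 83.3% of those in EPRSTOPE cells, with 76 to 142 counts in a mock library, 10 to 16 in an EPR library and 17 to 37 in an EPRSTOPE library. Pparg-202 had 24 to 38 counts in each mock library and none in any of the 6 libraries with EPR or EPRSTOPE. At transcript level the lower Pparg-201 in EPRSTOPE cells (log2 -1.81 against mock, edgeR adjusted p = 0.013 over 45412 transcripts) missed the threshold. Pparg-202 passed the filter through the mock libraries alone, so its loss is given as a description. Pparg-207, a shorter model, had 58 counts in mock, 7 counts in EPR and 13 counts in EPRSTOPE cells, the last all in a single library. These counts are the quantifier's division of reads among overlapping models. The 250 bases before the RefSeq start sites matched to the 2 forms with the most counts are shown because the counts of the 2 forms differ between groups, in the sense of the gene, 5′ to 3′, on GRCm38.p6. A RefSeq start was matched to a form near whose beginning it falls, so it need not be the annotated start. The window matched to Pparg-202 is 82.4% G and C, that matched to Pparg-201 40.8%. In Gencode M21 *Pparg* starts at 115360951, inside the first window, so part of that window can be transcribed.
Pparg-202 (chr6:115360894-115361143, + strand): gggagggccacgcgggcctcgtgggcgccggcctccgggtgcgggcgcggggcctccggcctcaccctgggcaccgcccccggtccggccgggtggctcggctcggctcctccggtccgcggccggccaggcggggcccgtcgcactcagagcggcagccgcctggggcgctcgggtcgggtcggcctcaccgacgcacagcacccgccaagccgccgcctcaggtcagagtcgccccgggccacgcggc
Pparg-201 (chr6:115421816-115422065, + strand): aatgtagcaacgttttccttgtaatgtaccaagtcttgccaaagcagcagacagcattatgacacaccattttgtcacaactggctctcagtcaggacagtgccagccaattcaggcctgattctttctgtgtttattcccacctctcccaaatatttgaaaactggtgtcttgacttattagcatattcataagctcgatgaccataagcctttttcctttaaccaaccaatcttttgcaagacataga

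*Ppard* (ENSMUSG00000002250.15, chromosome 17) was at 14.3, 12.3 and 14.8 CPM in mock, 23.7, 21.6 and 16.0 CPM in EPR, and 11.5, 11.6 and 14.6 CPM in EPRSTOPE libraries. The EPR libraries lay above both other groups, though EPR library 208 was close to them, and the mock and EPRSTOPE libraries overlapped. EPR exceeded mock by 0.56 on the log2 scale (SE 0.16). EPRSTOPE did not differ from mock detectably (log2 -0.13, 95% interval -0.50 to 0.24, edgeR adjusted p = 0.56). *Ppard* was higher in EPR than in EPRSTOPE cells (log2 0.69, SE 0.16, edgeR adjusted p = 0.0071). That call was not stable. It was lost when EPR library 206 or 207, EPRSTOPE library 209 or 210, or mock library 203 or 205 was left out (adjusted p = 0.010 to 0.036), and with limma or in a fit of these groups alone (0.013 each), with counts scaled from TPM (0.078) and by its highest transcript (0.089).

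*Ppara* (ENSMUSG00000022383.13, chromosome 15) had 0 to 2 counts in a mock library, 5 to 6 in an EPR library and 1 to 5 in an EPRSTOPE library, which is 0.311, 0.106 and 0 CPM, 0.436, 0.631 and 0.561 CPM, and 0.678, 0.534 and 0.115 CPM. The ratio of summed counts was 5.0 for EPR over mock (95% exact counting interval 1.43 to 26.8), 3.92 for EPRSTOPE over mock (1.01 to 22.2) and 1.27 for EPR over EPRSTOPE (0.544 to 3.14). EPRSTOPE libraries overlapped both other groups. These intervals cover counting error only.

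On a scale that accounts for transcript length (TPM, transcripts per 1000000), the order of the receptors was not the same in every group. *Pparg* led in mock libraries at 13.4 ± 3.9 TPM, against 6.50 ± 1.17 TPM for *Ppard* (SD, n = 3), and the libraries of the 2 genes did not overlap. In EPR libraries *Ppard* was at 8.31 ± 1.85 TPM and *Pparg* at 1.33 ± 0.594 TPM. In EPRSTOPE libraries the values were 5.15 ± 0.0790 TPM for *Ppard* and 2.58 ± 0.642 TPM for *Pparg*, again without overlap. *Ppara* was below 1 TPM on average in each group.

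**Figure D1:**
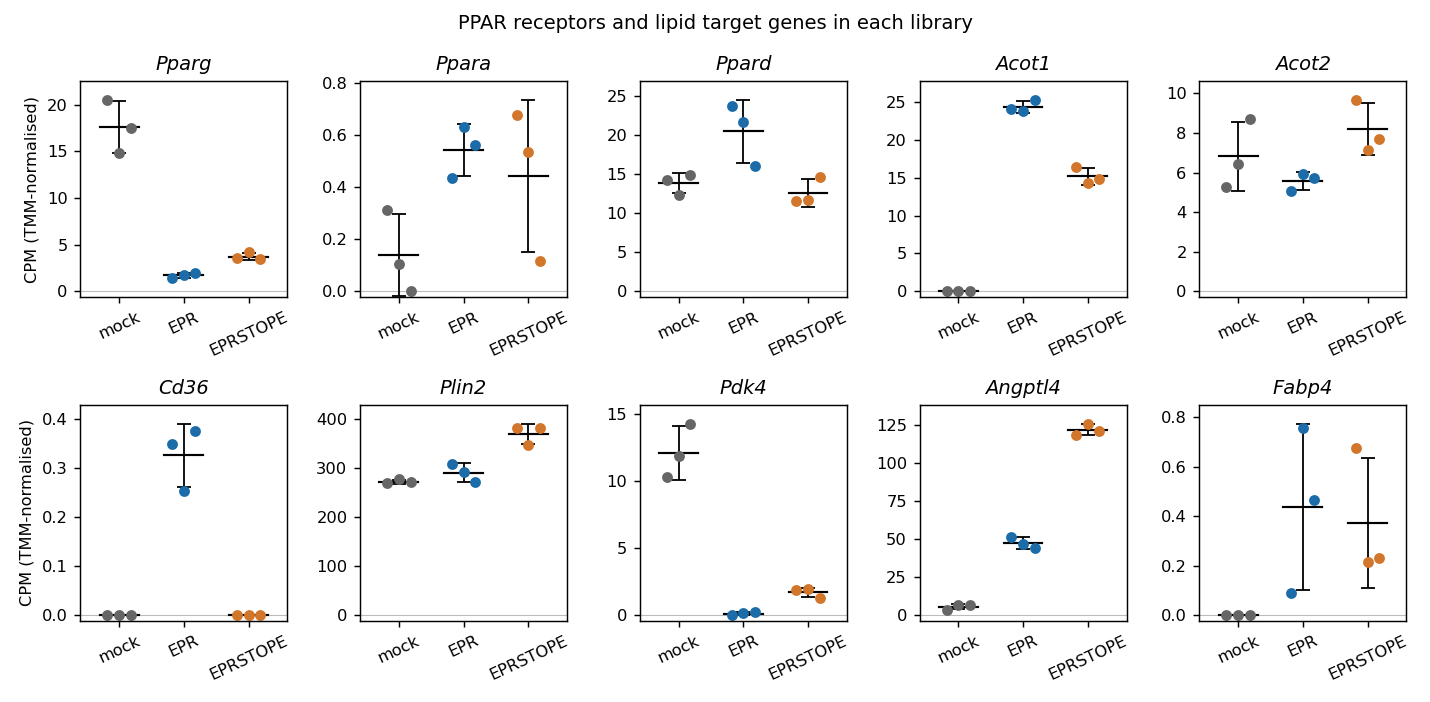
Level of each of the 10 genes in CPM (linear vertical axis, TMM-normalised, own scale per panel) in the 3 mock, 3 EPR and 3 EPRSTOPE libraries; points are libraries, horizontal lines the group mean and bars ± SD. *Acot1* is at 0 in all mock libraries and between 14.3 and 25.2 CPM in the 6 others, *Pparg* and *Pdk4* are highest in mock and *Angptl4* in EPRSTOPE, while *Ppara*, *Cd36* and *Fabp4* stay below 1 CPM.

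*Acot1* and *Acot2* encode acyl-CoA thioesterases, which split fatty acyl-CoA into free fatty acid and coenzyme A, in the cytosol for *Acot1* and in mitochondria for *Acot2*. The 2 genes (ENSMUSG00000072949.6 and ENSMUSG00000021226.7) are neighbours on the + strand of chromosome 12, 15616 bases apart in Gencode M21 (*Acot2* from 83987861 to 83993873, *Acot1* from 84009490 to 84018371, GRCm38). They are near copies. Of 1236 aligned bases of their coding sequences, 1178 (95.3%) were identical, and of the 31-base words of Acot1-201, 40.1% also occur in other genes, 28.8% in *Acot2*, so reads from one gene can be assigned to another. A stretch at which the pair can be told apart is shown first, since the *Acot1* result rests on such positions. It covers the first 90 bases of the *Acot1* coding sequence and the aligned bases 124 to 213 of that of *Acot2*, with the differing bases in capitals.
Acot1: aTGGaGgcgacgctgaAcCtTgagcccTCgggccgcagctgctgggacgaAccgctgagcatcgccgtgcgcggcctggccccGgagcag
Acot2: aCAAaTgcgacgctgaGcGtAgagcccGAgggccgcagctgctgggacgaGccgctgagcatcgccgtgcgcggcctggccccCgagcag

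*Acot1* had no counts in any mock library, 24.1, 23.7 and 25.2 CPM in the EPR libraries and 16.4, 14.3 and 14.8 CPM in the EPRSTOPE libraries. The groups did not overlap, and the spread within the EPR and EPRSTOPE groups was small. Set against the 3 counts that an empty mock group of this depth allows (0.106 CPM over the group), the level was at least 229-fold higher in EPR cells, the contrast used for choosing, and at least 141-fold higher in EPRSTOPE cells (edgeR adjusted p = 6.3e-09). EPR exceeded EPRSTOPE 1.61-fold (log2 0.69, SE 0.12, edgeR adjusted p = 0.0019), a call that was lost without EPRSTOPE library 210 or 211 (0.010 each), with counts scaled from TPM (0.025) and by its highest transcript (log2 0.57, adjusted p = 0.16). Each of the 4 annotated *Acot1* transcripts was at 0 in the mock libraries. In EPR cells the 734 counts of the gene were divided, each model rounded on its own, among Acot1-201 (217 counts), Acot1-202 (168), Acot1-203 (47) and the short non-coding model Acot1-204 (301), and in EPRSTOPE cells the 360 counts among 87, 85, 23 and 165.

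*Acot2* was at 5.28, 6.44 and 8.71 CPM in mock, 5.06, 5.93 and 5.70 CPM in EPR and 9.66, 7.16 and 7.71 CPM in EPRSTOPE libraries. The EPRSTOPE and EPR libraries did not overlap, but no difference passed the test. The log2 fold change was 0.23 in EPRSTOPE against mock (95% interval -0.24 to 0.70, edgeR adjusted p = 0.41) and -0.55 in EPR against EPRSTOPE (-1.02 to -0.07, adjusted p = 0.081). It was -0.32 (SE 0.22) in EPR against mock. The counts of the 2 genes were also added, since that sum does not depend on how reads were divided between them. It does not cover the words that *Acot1* shares with genes other than *Acot2*. The sum stood at 6.81 ± 1.74 CPM in mock, 29.9 ± 0.915 CPM in EPR and 23.4 ± 2.42 CPM in EPRSTOPE libraries. It rose 3.33-fold in EPRSTOPE against mock (log2 1.73, SE 0.16, edgeR adjusted p = 2e-06) and did not pass between EPR and EPRSTOPE (log2 0.36, SE 0.14, adjusted p = 0.070). EPR exceeded mock 4.28-fold.

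The promoters of this neighbouring pair are shown because the 2 genes differed so much in level between mock and the other cells. Both are the 250 bases before the RefSeq start on GRCm38.p6, read 5′ to 3′ along the gene.
Acot1 (chr12:84009252-84009501, + strand): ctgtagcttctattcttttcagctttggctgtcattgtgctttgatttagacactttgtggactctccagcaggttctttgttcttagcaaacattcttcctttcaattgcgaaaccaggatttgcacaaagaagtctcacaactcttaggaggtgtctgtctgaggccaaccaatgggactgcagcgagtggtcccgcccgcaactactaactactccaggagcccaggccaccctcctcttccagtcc
Acot2 (chr12:83987611-83987860, + strand): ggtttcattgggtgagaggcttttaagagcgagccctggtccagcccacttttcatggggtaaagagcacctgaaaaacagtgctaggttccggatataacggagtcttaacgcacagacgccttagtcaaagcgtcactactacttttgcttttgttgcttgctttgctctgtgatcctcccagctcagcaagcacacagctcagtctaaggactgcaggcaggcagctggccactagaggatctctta

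**Figure D2:**
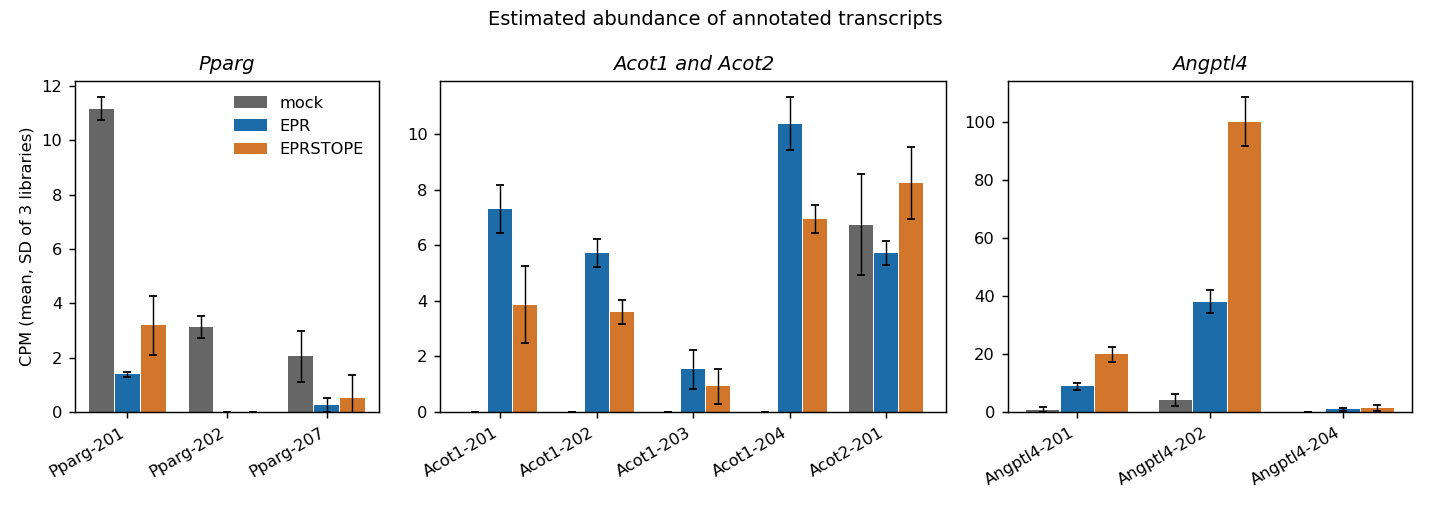
Mean level in CPM (bars, with SD over 3 libraries) of the transcripts of *Pparg*, *Acot1*, *Acot2* and *Angptl4* that passed the filter, in mock, EPR and EPRSTOPE cells. All 4 *Acot1* models are at 0 in mock, Pparg-202 is at 0 in both other groups, and Angptl4-202 carries most of the *Angptl4* signal in each group.

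*Angptl4* encodes a secreted inhibitor of lipoprotein lipase and is a classical target of PPARs in many tissues. It was at 3.57, 6.44 and 6.43 CPM in mock, 51.1, 46.7 and 43.9 CPM in EPR, and 118, 125 and 121 CPM in EPRSTOPE libraries. The groups were far apart, with the mutant highest. The level in EPR was 8.3-fold that in mock (log2 difference 3.05, SE 0.14). In EPRSTOPE against mock *Angptl4* rose 21.3-fold (log2 fold change 4.42, SE 0.14, edgeR adjusted p = 2.4e-10), and it was 2.57-fold lower in EPR than in EPRSTOPE cells (log2 -1.36, SE 0.11, edgeR adjusted p = 3.3e-06). Both calls held in all 17 alternatives tried, among them leaving out each library. The transcript Angptl4-202, annotated as subject to nonsense-mediated decay and looked at after its values were seen, carried 79.0%, 78.8% and 82.3% of the counts in mock, EPR and EPRSTOPE cells. The protein-coding Angptl4-201 carried 17.3%, 18% and 15.9%, so the division between the forms was close to the same in each group.

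*Pdk4* encodes a kinase that inactivates pyruvate dehydrogenase and so spares glucose when fat is burned. It was at 10.3, 11.8 and 14.2 CPM in mock, 0, 0.126 and 0.187 CPM in EPR, and 1.86, 1.92 and 1.27 CPM in EPRSTOPE libraries. As for *Pparg*, the groups did not overlap and EPRSTOPE lay between mock and EPR. EPR libraries held 3 counts in all against 353 in mock libraries, a ratio of 126 with a 95% counting interval of 42.6 to 611. In EPRSTOPE against mock *Pdk4* fell 7.22-fold (log2 fold change -2.85, SE 0.31, edgeR adjusted p = 9.5e-06). It was lower in EPR than in EPRSTOPE cells, with 3 against 40 counts (ratio 16.7, counting interval 5.33 to 84.6, edgeR adjusted p = 0.00026). With counts scaled from TPM neither call passed (adjusted p = 0.058 and 0.032).

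*Plin2* encodes perilipin 2, the coat protein of lipid droplets in most cells, and was by TPM the most abundant of the 10 genes in every group. It stood at 269, 277 and 271 CPM in mock, 309, 293 and 272 CPM in EPR, and 383, 346 and 381 CPM in EPRSTOPE libraries. The EPRSTOPE libraries lay above all others, and the lowest EPR library reached into the mock range. EPRSTOPE exceeded mock 1.36-fold (log2 0.44, SE 0.06, edgeR adjusted p = 9.3e-05) and EPR was below EPRSTOPE (log2 -0.35, SE 0.06, adjusted p = 0.0013). Both differences passed the p threshold and stayed under the fold cut-off, so neither was counted as changed. With counts scaled from TPM the log2 differences were 0.13 (adjusted p = 0.77) and -0.46 (adjusted p = 0.33), so neither passed there. In EPR against mock the log2 difference was 0.10 (SE 0.06) from the counts and -0.33 with counts scaled from TPM, and its direction thus depended on the scale. Of the 31-base words of Plin2-201, 8.4% also occur in the gene model *Gm12551*.

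*Cd36* encodes a fatty acid translocase of the plasma membrane and *Fabp4* the fatty acid binding protein of adipocytes and macrophages. *Cd36* had 4, 2 and 4 counts in the EPR libraries (0.349, 0.253 and 0.374 CPM) and none in the mock or EPRSTOPE libraries. Against the 3 counts a group at 0 allows, its level in EPR was 3.13-fold that in mock and 2.66-fold that in EPRSTOPE cells. These ratios leave out the counting error of the EPR counts themselves, so the true ratios may be lower. *Fabp4* had no counts in mock, 1, 6 and 5 in EPR (0.0870, 0.758 and 0.467 CPM) and 4, 2 and 2 in EPRSTOPE libraries (0.678, 0.214 and 0.230 CPM). Against 3 counts in mock the ratios were 3.75 for EPR and 3.14 for EPRSTOPE, with the same limit. The EPR and EPRSTOPE libraries overlapped (ratio 1.19, counting interval 0.449 to 3.37). At such counts no further difference was detectable at this depth. The adipocyte markers *Adipoq* and *Lep* were at 0 in all 9 libraries, and the list of 8 such markers summed to 8.54 to 10.8, 10.4 to 14.2 and 11.96 to 17.1 CPM in mock, EPR and EPRSTOPE libraries, nearly all of it *Lipe*. Of 6 macrophage markers, *Adgre1* was at 0 in every library and *Lyz2* at 0 in mock and EPR. That list summed to 39.5 to 45.3, 291.5 to 320.1 and 189.5 to 214.5 CPM, of which *Cd14*, not specific to macrophages, was nearly all. Of 5 endothelial markers only *Pecam1* reached a mean of 1 CPM in a group (sums of 11.03 to 12.1, 11.4 to 14.8 and 11.2 to 16.7 CPM). The 5 myoepithelial markers summed to 10.4 to 11.6, 1.26 to 1.66 and 2.76 to 3.42 CPM, the mock value nearly all *Acta2*, and *Trp63* was at 0 throughout.

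**Figure D3:**
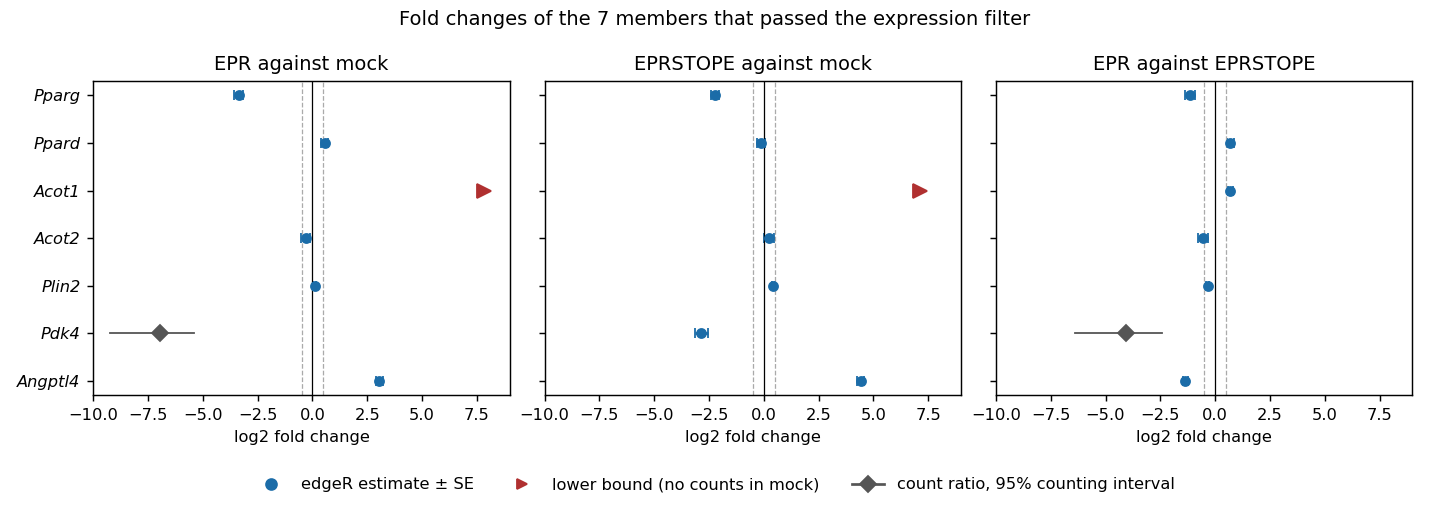
log2 fold change (horizontal axis, left lower and right higher in the first-named group) of the 7 genes that passed the filter, in 3 comparisons; circles are edgeR estimates ± SE, triangles lower bounds against a group without counts, diamonds count ratios with 95% counting intervals, and dashed lines the fold cut-off of 0.5. *Pparg* and *Pdk4* lie left of 0 and *Angptl4* right of 0 against mock with EPR and with EPRSTOPE, and *Angptl4* lies left of 0 in EPR against EPRSTOPE.

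Counted together, 2 members (*Acot1* and *Angptl4*) were higher and 2 (*Pparg* and *Pdk4*) lower in EPR against mock by the cut-offs, where 15.2% of all genes tested were higher and 12.9% lower. As the genes were chosen by that contrast, nothing is read from it. In EPRSTOPE against mock 2 of the 7 tested members rose, *Acot1* and *Angptl4* (15.6% of all genes did), and 2 fell, *Pparg* and *Pdk4* (12.4% of all genes did). This comparison shares its mock libraries with the former. In EPR against EPRSTOPE, which shares its EPR libraries with the contrast used for choosing, 2 of 7 were higher in EPR, *Ppard* and *Acot1*, against 6.86% of all genes. There 3 of 7 were lower in EPR, *Pparg*, *Pdk4* and *Angptl4*, against 6.35% of all genes. For 3 single libraries against 3, the exact permutation test cannot give a two-sided p below 0.1, which it gave for each difference called here.

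The promoters of 8 of the 10 genes were found in the RefSeq table (GRCm38.p6, 250 bases before to 50 after the start), *Pparg* with 3, and *Angptl4* and *Fabp4* were not among them. They were searched on both strands for AGGTCANAGGTCA with at most 2 of its 12 fixed bases changed, which 3.86% of all 32851 promoters hold. The unchanged motif occurs in 13 promoters (0.04%). A match with 2 changed bases lay in the promoters of *Plin2* and *Cd36*, in both on the reverse strand, and none in the other 6 genes. The hexamer AGGTCA alone, which 16.3% of all promoters hold and which is part of the longer motif, was found in those 2 promoters and in the first 2 of the 3 *Pparg* promoters, that matched to Pparg-202 included. Neither *Acot1* nor *Pdk4* had either in this window. A match is a string of letters and no evidence of binding, and no match speaks only of this window. The *Plin2* promoter is shown as the example on a gene that was expressed, with the match in capitals.
Plin2 (chr4:86670060-86670309, − strand): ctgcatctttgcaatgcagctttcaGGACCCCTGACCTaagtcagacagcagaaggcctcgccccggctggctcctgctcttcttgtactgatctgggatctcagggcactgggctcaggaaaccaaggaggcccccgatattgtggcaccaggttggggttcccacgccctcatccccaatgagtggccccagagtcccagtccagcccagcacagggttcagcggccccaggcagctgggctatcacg

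Most like *Acot1* over the 9 libraries, by the root mean square difference of mean-centred log2 CPM among 15369 other genes, were *Aldh3a1* (0.31), *Pir* (0.36) and *Lcn2* (0.37). *Aldh3a1*, an aldehyde dehydrogenase, averaged 1.25 ± 0.467 CPM in mock, 183.6 ± 0.128 CPM in EPR and 141.7 ± 6.57 CPM in EPRSTOPE libraries. *Lcn2*, the secreted siderophore-binding protein lipocalin 2, was at 0.467 ± 0.0603, 140.0 ± 3.16 and 60.3 ± 7.46 CPM. Most like *Pparg* were *Tnc* (0.18), *Nt5dc2* (0.22) and *Zfp354c* (0.31). *Tnc*, the extracellular matrix protein tenascin C, averaged 214.5 ± 10.1 CPM in mock, 22.9 ± 2.57 CPM in EPR and 50.4 ± 3.72 CPM in EPRSTOPE libraries. These likenesses were picked from the same libraries and are descriptions.

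Other genes of the PPAR pathway were followed through a list of 146 genes in 8 groups, of which 99 passed the filter. In EPR against mock 37 of the 99 rose (37.4%, against 15.2% of all genes) and 11 fell (11.1%, against 12.9%), with a median log2 fold change of 0.27 on the list and -0.01 over all genes. In EPRSTOPE against mock 38 rose (38.4%, against 15.6%) and 9 fell (9.09%, against 12.4%), with medians of 0.44 and -0.04. In EPR against EPRSTOPE 8 were higher (8.08%, against 6.86%) and 15 lower in EPR (15.2%, against 6.35%), with medians of -0.06 and 0.01. With counts scaled from TPM, 95 list genes were tested. In EPR against mock 18 were higher (18.9%, against 9.24% of all genes in that fit) and 7 lower (7.37%, against 5.56%). In EPRSTOPE against mock the numbers were 23 (24.2%, against 9.52%) and 5 (5.26%, against 5.79%), and in EPR against EPRSTOPE 4 (4.21%, against 1.69%) and 5 (5.26%, against 1.47%). No test of the list as a whole was made. It was drawn up with earlier results of these data known, and EPR against mock is the contrast used for choosing the members. Shares of the list above those of all genes are therefore descriptions and no independent support. The p-values that follow are edgeR's, adjusted over all genes, and carry the same limit.

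Among RXR partners and coregulators (17 listed, 15 tested), 5 rose (33.3%, against 15.2% of all genes) and 2 fell (13.3%, against 12.9%) in EPR against mock. With EPRSTOPE 4 rose (26.7%, against 15.6%) and 2 fell (13.3%, against 12.4%), and 1 was lower in EPR against EPRSTOPE (6.67%, against 6.35%). *Nr1h3*, encoding the oxysterol receptor LXRα, which also pairs with RXR, had 3 counts in mock, 449 counts in EPR and 305 counts in EPRSTOPE cells. The ratio to mock was 140 (counting interval 47.7 to 683) and 120 (40.6 to 583), with adjusted p = 7.8e-08 and 1.1e-07. *Lpin1*, a phosphatidate phosphatase that also coactivates PPARα, rose from 2.62 ± 0.577 CPM to 11.9 ± 1.29 in EPR and 11.3 ± 1.5 in EPRSTOPE libraries (adjusted p = 3e-06 and 3.9e-06). *Rxra*, which encodes an RXR, rose from 27.8 ± 2.29 CPM to 47.8 ± 3.43 and 52.2 ± 7.67 CPM (adjusted p = 0.00011 and 3.1e-05). *Rxrb* did not differ detectably from mock (adjusted p = 0.85 and 0.83), and *Rxrg* did not pass the filter. The coactivator gene *Pprc1* fell from 112 ± 7.42 CPM to 76.0 ± 7.52 and 60.2 ± 5.81 CPM (adjusted p = 0.00024 and 6.1e-06). *Ppargc1a*, also a coactivator gene, fell from 3.60 ± 0.591 CPM to 0.473 ± 0.223 and 0.291 ± 0.270 CPM. It passed the filter through the mock libraries alone, so its fall is given as a description. *Ncoa1*, another coactivator, was lower in EPR (7.22 ± 1.48 CPM) than in EPRSTOPE libraries (12.9 ± 1.78 CPM, adjusted p = 0.0040).

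Uptake and binding of fatty acids (18 listed, 9 tested) had 2 genes up (22.2%, against 15.2% of all genes) and 2 down (22.2%, against 12.9%) with EPR. There were 3 up (33.3%, against 15.6%) and 3 down (33.3%, against 12.4%) with EPRSTOPE. Between the forms 2 were higher (22.2%, against 6.86%) and 1 lower in EPR (11.1%, against 6.35%). *Vnn1*, encoding a pantetheinase known as a PPARα target in liver, rose from 3.79 ± 1.15 CPM to 643 ± 31.3 with EPR and 628 ± 13.3 with EPRSTOPE (log2 fold changes 7.35 and 7.32, adjusted p = 2.5e-12 and 2.6e-12) and did not differ detectably between these (log2 0.03, SE 0.09, adjusted p = 0.82). *Fabp5*, a fatty acid carrier to PPARδ in epithelial cells, fell from 94.96 ± 4.73 CPM to 61.6 ± 3.30 with EPR and much further, to 9.72 ± 0.767, with EPRSTOPE (log2 2.66 between EPR and EPRSTOPE, SE 0.09, adjusted p = 1.8e-09). The transporter gene *Slc27a1* rose from 4.23 ± 0.637 CPM to 8.16 ± 1.27 and 8.47 ± 0.856 CPM (adjusted p = 0.0017 and 0.0012). *Scarb1*, the receptor for high-density lipoprotein, fell from 42.5 ± 2.98 CPM to 16.7 ± 0.886 and 22.0 ± 2.43 CPM (adjusted p = 5.6e-07 and 1e-05). The lipoprotein receptor gene *Vldlr* was at 50.6 ± 3.47 CPM in EPR and 30.97 ± 1.02 CPM in EPRSTOPE libraries (adjusted p = 4.2e-05), and *Dbi*, an acyl-CoA carrier, at 55.3 ± 3.36 and 78.6 ± 6.11 CPM (adjusted p = 0.00089).

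Acyl-CoA synthetases and other thioesterases (17 listed, 9 tested) had 3 genes up (33.3%, against 15.2% of all genes) and 2 down (22.2%, against 12.9%) with EPR. With EPRSTOPE 2 were up (22.2%, against 15.6%). Between the forms 2 were higher (22.2%, against 6.86%) and 1 lower in EPR (11.1%, against 6.35%). *Acsl4*, which activates arachidonate, rose from 80.8 ± 2.17 CPM to 236 ± 24.5 with EPR (adjusted p = 1.1e-08) and was at 108.5 ± 3.98 with EPRSTOPE, 2.18-fold below EPR (adjusted p = 5.1e-07). *Acsl1* rose from 9.42 ± 0.941 CPM to 19.9 ± 0.603 and 23.4 ± 2.28 CPM (adjusted p = 1.2e-05 and 2.3e-06). *Acsl3* fell with EPR, from 64.8 ± 2.24 to 42.65 ± 2.39 CPM (adjusted p = 3.6e-05). *Acsl5* was at 510 ± 17.0 CPM in EPR and 321 ± 9.74 CPM in EPRSTOPE libraries (adjusted p = 2.2e-06). Of the thioesterases other than the members, the peroxisomal *Acot8* rose with both forms, from 5.87 ± 0.627 CPM to 10.0 ± 1.75 and 11.4 ± 1.49 CPM (adjusted p = 0.0043 and 0.0010). *Acot13* fell with EPR, from 16.6 ± 1.31 to 11.5 ± 0.455 CPM (adjusted p = 0.0025), and was at 16.3 ± 1.41 CPM with EPRSTOPE. *Acot3*, *Acot5* and *Acot6*, of the same family cluster as *Acot1*, were below 0.5 CPM on average in every group. *Acot4*, of that cluster too, averaged 2.12 ± 0.725 CPM in mock, 1.97 ± 0.378 CPM in EPR and 1.21 ± 0.310 CPM in EPRSTOPE libraries and passed in no comparison (adjusted p = 0.77 for EPR against mock, 0.10 for EPRSTOPE against mock and 0.23 for EPR against EPRSTOPE).

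Mitochondrial fatty acid oxidation (26 listed, 24 tested) had 5 genes up (20.8%, against 15.2% of all genes) and 4 down (16.7%, against 12.9%) with EPR. With EPRSTOPE 6 were up (25%, against 15.6%) and 3 down (12.5%, against 12.4%). Between the forms 1 was higher (4.17%, against 6.86%) and 2 were lower in EPR (8.33%, against 6.35%). *Cpt1a*, which admits long-chain acyl groups to mitochondria and is rate-limiting, rose from 70.4 ± 3.40 CPM to 243 ± 8.52 with EPR and 142 ± 6.05 with EPRSTOPE (adjusted p = 5.8e-10 and 6.2e-08), and EPR exceeded EPRSTOPE (log2 0.77, SE 0.06, adjusted p = 2e-06). *Cpt1c*, the form known from neurons, fell from 7.82 ± 1 CPM to 0.292 ± 0.129 and 0.451 ± 0.232 CPM. It passed the filter through the mock libraries alone, so its fall is given as a description. The uncoupling protein gene *Ucp2* rose from 41.5 ± 2.67 CPM to 69.5 ± 1.92 and 87.4 ± 9.73 CPM (adjusted p = 1.5e-05 and 5.8e-07). *Decr1*, which is needed for unsaturated chains, fell with EPR, from 31.5 ± 0.839 to 12.2 ± 1.82 CPM (adjusted p = 2.2e-06), and was lower in EPR than in EPRSTOPE libraries (29.8 ± 3.66 CPM, adjusted p = 1.1e-05). The thiolase gene *Acaa2* was at 34.4 ± 2.34 CPM in EPR and 71.7 ± 5.15 CPM in EPRSTOPE libraries (adjusted p = 2.2e-06). Of the other pyruvate dehydrogenase kinases, *Pdk1* rose from 16.9 ± 0.291 CPM to 48.3 ± 4.54 and 34.3 ± 2.46 CPM (adjusted p = 1e-07 and 3.4e-06). *Pdk3* fell from 25.3 ± 2.85 CPM to 9.88 ± 1.92 and 6.41 ± 1.61 CPM (adjusted p = 5.8e-05 and 4.7e-06).

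In peroxisomal and omega oxidation (21 listed, 16 tested) 9 genes rose with EPR (56.2%, against 15.2% of all genes) and 7 with EPRSTOPE (43.8%, against 15.6%). Between the forms 1 was higher (6.25%, against 6.86%) and 3 were lower in EPR (18.8%, against 6.35%). *Acox2*, an oxidase of branched chains and bile acid intermediates, rose from 1.27 ± 0.546 CPM to 8.23 ± 0.596 with EPR and 30.6 ± 0.710 with EPRSTOPE (adjusted p = 8.9e-07 and 4.2e-09), a difference of -1.89 on the log2 scale between EPR and EPRSTOPE (SE 0.16, adjusted p = 3.5e-06). *Cyp4b1*, a fatty acid hydroxylase, followed the same order, at 0.996 ± 0.144, 4.43 ± 0.241 and 9.20 ± 1.31 CPM (adjusted p = 2.1e-05 and 5e-07 against mock). *Acox3* rose from 10.4 ± 1.28 CPM to 25.5 ± 3.67 and 20.2 ± 2.53 CPM (adjusted p = 1.6e-05 and 0.00025). *Cat*, encoding the peroxisomal marker enzyme catalase, was higher with EPR (106.5 ± 5.54 CPM) than in mock (67.0 ± 7.47 CPM, adjusted p = 2e-05) or EPRSTOPE libraries (59.7 ± 1.24 CPM, adjusted p = 9.6e-06). The PPARα targets *Cyp4a10* and *Cyp4a14* and the bifunctional enzyme gene *Ehhadh* were below 0.1 CPM on average in every group.

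Lipid droplets, storage and lipolysis (20 listed, 12 tested) had 5 genes up (41.7%, against 15.2% of all genes) and 1 down (8.33%, against 12.9%) with EPR. With EPRSTOPE 8 were up (66.7%, against 15.6%) and 1 down (8.33%, against 12.4%). Between the forms 2 were lower in EPR (16.7%, against 6.35%). Genes of glycerolipid synthesis were among those that rose. *Gpd1* went from 2.46 ± 0.689 CPM to 9.85 ± 1.39 and 12.1 ± 1.63 CPM (adjusted p = 1.6e-05 and 4.8e-06), and *Agpat2* from 11.04 ± 1.7 CPM to 32.7 ± 3.70 and 37.7 ± 3.64 CPM (adjusted p = 1.4e-06 and 4.3e-07). *Plin4*, a droplet coat protein and relative of *Plin2*, was the gene that fell in both, from 14.9 ± 2.08 CPM to 2.08 ± 0.996 and 7.50 ± 0.786 CPM (adjusted p = 3.5e-06 and 0.0046). EPR and EPRSTOPE also differed in it (log2 -1.81, SE 0.28, adjusted p = 0.00040). Glycerol kinase, *Gk*, was at 18.5 ± 1.39 CPM in EPR and 50.6 ± 10.9 CPM in EPRSTOPE libraries (adjusted p = 2e-05).

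Of the adipocyte programme (16 listed, 8 tested), 7 genes rose with EPR (87.5%, against 15.2% of all genes) and 5 with EPRSTOPE (62.5%, against 15.6%). Between the forms 2 were higher (25%, against 6.86%) and 2 lower in EPR (25%, against 6.35%). *Cebpa*, encoding C/EBPα, which acts with PPARγ in adipocytes, averaged 1.36 ± 0.575 CPM in mock, 13.7 ± 3.82 CPM in EPR and 1.80 ± 0.0837 CPM in EPRSTOPE libraries. It rose with EPR (log2 3.42, SE 0.32, adjusted p = 3.2e-06) and was 7.63-fold higher in EPR than in EPRSTOPE cells (adjusted p = 2.5e-05). *Cebpd*, an earlier factor of that programme, showed the opposite order between the forms, at 4.85 ± 0.307, 17.4 ± 1.62 and 41.6 ± 6.07 CPM (log2 -1.26 in EPR against EPRSTOPE, SE 0.12, adjusted p = 1.3e-05). *Cav1*, the coat protein of caveolae, was at 246.5 ± 10.9, 522 ± 16.3 and 888 ± 18.2 CPM (log2 -0.77 in EPR against EPRSTOPE, SE 0.05, adjusted p = 4.7e-07). The listed genes that define mature fat cells, *Adipoq*, *Lep* and *Cfd*, were at or near 0.

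Enzymes that make or remove receptor ligands (11 listed, 6 tested) had 1 gene up with EPR (16.7%, against 15.2% of all genes). With EPRSTOPE 3 were up (50%, against 15.6%), and between the forms 3 were lower in EPR (50%, against 6.35%). *Ptgs1*, a cyclooxygenase, rose from 49.2 ± 5.69 CPM to 159.8 ± 1.53 with EPR and 230.0 ± 5.73 with EPRSTOPE (adjusted p = 4.7e-09 and 4.4e-10). *Ptgs2*, the inducible cyclooxygenase, was at 563 ± 25.1 CPM in mock and 550.3 ± 48.0 in EPR libraries and rose to 1048 ± 87.5 CPM with EPRSTOPE (log2 0.90, SE 0.08, adjusted p = 1.1e-06). *Naaa*, which degrades the PPARα agonist palmitoylethanolamide, was at 12.6 ± 1.67, 14.1 ± 0.985 and 25.7 ± 0.526 CPM and rose with EPRSTOPE (adjusted p = 1.7e-05). Between EPR and EPRSTOPE all of these were lower in EPR, by 0.53, 0.93 and 0.86 on the log2 scale for *Ptgs1*, *Ptgs2* and *Naaa*.

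**Figure D4:**
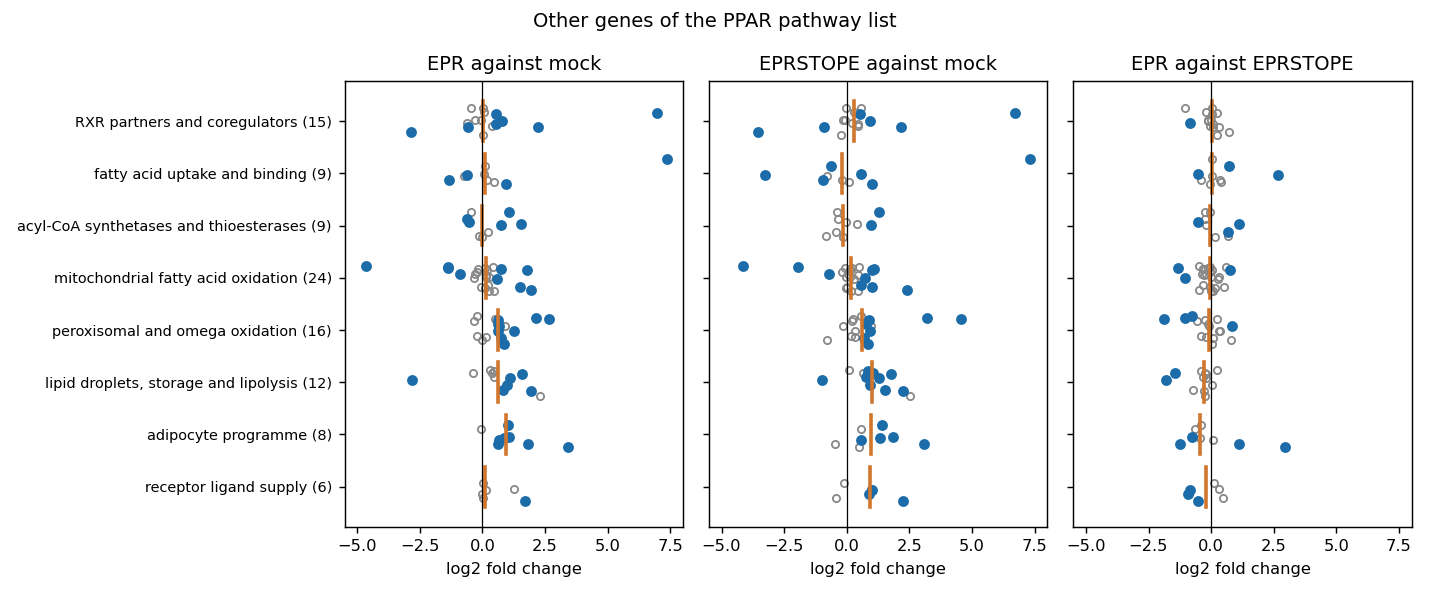
log2 fold change (horizontal axis) of the 99 tested genes of the pathway list in 3 comparisons, by group (number tested in brackets); filled points passed the cut-offs, open points did not, orange bars are group medians and vertical scatter is only for legibility. Against mock the points of peroxisomal oxidation, lipid storage and the adipocyte programme lie mostly right of 0, and *Vnn1* (7.35 and 7.32) and *Nr1h3* are the points farthest right.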

How the data were processed

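The 9 RNA-Seq libraries (3 mock, 3 EPR, 3 EPRSTOPE) were grouped by the titles in the labels. The authors mapped read pairs onto Gencode vM15 mouse transcripts with kallisto 0.43.1 (version from the submitters' processing notes, which also name bcl2fastq 2.0 and GRCm38.p5) and deposited, per transcript, unnormalized estimated counts and TPM, the latter scaled by effective length. TPM sums to 1000000 in a library and keeps no depth.

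Estimated counts were summed per gene symbol and rounded. Genes at 1 CPM or more in at least 3 libraries (15370 of 52459) were tested with edgeR 4.0.16 (quasi-likelihood, TMM, 1 factor of 3 levels over all 9 libraries, R 4.3.3), and 45412 transcripts likewise. The study's cut-offs were used (adjusted p under 0.01, log2 fold change beyond 0.5). CPM values are TMM-normalised. Intervals of a log2 fold change are 95% intervals from the t distribution of the edgeR fit. Counting intervals are 95% exact intervals, and a group at 0 was set at 3 counts over the group. Both cover counting error only, and the value set for a group at 0 leaves out that of the other group. The counts of all 9 replicate pairs differed beyond sampling noise (chi-square per degree of freedom 4.7 to 10.7). The code was tested on simulated data. Alternatives were DESeq2 1.42.0, limma 3.58.1 with voom, other scaling, filters, thresholds and features, a fit of 2 groups and leaving out each library.

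The members and lists were chosen with earlier results of these data known. Beside all members, list genes were named if they were among the 2 largest increases or decreases of their group in a comparison at a mean of 5 CPM or more, with transcripts of *Acot1*, *Acot2* and *Pparg* and the 3 genes most like *Acot1* and *Pparg* (prior count 2). Genes named at or near 0, *Acot4*, *Rxra*, *Rxrb*, *Rxrg*, *Ppargc1a*, marker genes and Angptl4-202 were added after their values were seen. Promoter sequences came from RefSeq (GRCm38.p6), and positions and coding sequences from Gencode M21 (GRCm38). Protein sequences were not analysed here. Some items are not reported here.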

Additional observations from a re-analysis of the deposited data

How the results depend on the processing

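Of 234 alternative values of the members' log2 fold changes in the tested comparisons, 211 kept the direction and side of the threshold, 22 lost the call and 1 gained it. In EPR against mock, 1 of 117 turned direction (*Plin2* with counts scaled from TPM, log2 -0.33). The lost calls were *Pparg* (6 alternatives, log2 -1.18 to -0.86), *Ppard* (10, 0.57 to 0.74) and *Acot1* (4, 0.57 to 0.67) in EPR against EPRSTOPE, and *Pdk4* with counts scaled from TPM in both tested comparisons (log2 -2.27 in EPRSTOPE against mock, -6.03 in EPR against EPRSTOPE). The gained one was *Plin2* by its highest transcript in EPRSTOPE against mock (0.69). Of 48 alternatives for the sum of *Acot1* and *Acot2*, all kept it. With at least 10 counts in every library, *Acot1* and *Pdk4* dropped out, which left 1 member lower in EPR against mock, 1 higher and 1 lower in EPRSTOPE against mock and 1 higher in EPR against EPRSTOPE. With counts scaled from TPM, 1 member was lower in EPRSTOPE against mock, where 5.79% of all genes in that fit were. In EPR against EPRSTOPE 0 were higher (1.69% of all genes) and 1 lower (1.47%). There, limma and the fit of 2 groups each gave 1 higher, and a log2 cut-off of 1 gave 0 (3.75% of all genes). Leaving out 1 library gave 0 to 2 (0 without EPRSTOPE library 210). In each of these edgeR fits with a count of 0, 2 members were higher at an unadjusted p under 0.05, and DESeq2 called 2. For the pathway list, TPM scaling gave 18 higher and 7 lower in EPR against mock, 23 and 5 in EPRSTOPE against mock and 4 and 5 in EPR against EPRSTOPE. A log2 cut-off of 1 gave, in that order, 19 (19.2%, against 8.81% of all genes) and 6 (6.06%, against 6.13%), 22 (22.2%, 8.46%) and 4 (4.04%, 6.98%), and 4 (4.04%, 3.75%) and 7 (7.07%, 2.76%). An adjusted p under 0.05 without a fold cut-off gave 16 lower in EPRSTOPE against mock (16.2%, against 23.1%), and 15 higher (15.2%, 14%) and 28 lower (28.3%, 16.2%) in EPR against EPRSTOPE. Beyond the genes removed by the count filter, the causes were not tested. No paired analysis was possible because the groups share no replicate numbers. Depth limits *Ppara*, *Cd36* and *Fabp4*, which held at most 16 counts in a group.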
